A study of Mus musculus with 6 samples.

Results

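The genes described here are 9 subunits and enzymes of the Polycomb and trithorax systems, Ezh1, Ezh2, Eed, Suz12, Bmi1, Ring1, Rnf2, Kmt2a and Kdm6b. They were chosen by name, and the values of every transcript of a gene were summed, so that 9 of the 32485 genes in the tables are described, with 64 transcripts among them. All 9 were measured in every library and passed the filter on low counts. The study sequenced RNA of cells sorted as quiescent neural stem cells (qNSCs) from the subependymal zone, the stem cell region beside the lateral ventricles of the brain, and asked how these cells differ when miR-204 is blocked. All mice were 3 months old, of the strain given as C56BL/6J, and carried the gfap:GFP transgene, in which the Gfap promoter, active in astrocytes and neural stem cells, drives green fluorescent protein. They received an injection into the ventricles of either aCSF (artificial cerebrospinal fluid, the vehicle) or an antagomir, a modified oligonucleotide directed against miR-204. Cells were taken 3 days later, with 3 libraries per group, called vehicle 1 to 3 and antagomir 1 to 3. The labels name no control oligonucleotide, and they do not say whether libraries came from separate animals or pools, so a p-value here reflects variation among 6 libraries that may be technical.

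Polycomb proteins keep genes silent. Polycomb repressive complex 2 (PRC2) methylates a lysine in the tail of histone H3 through Ezh1 or Ezh2, with Eed and Suz12 as core partners, and Polycomb repressive complex 1 (PRC1) attaches ubiquitin to histone H2A through Ring1 or Rnf2, which pair with a subunit such as Bmi1. The trithorax protein Kmt2a (also called Mll1) places an activating methyl mark on another lysine of H3, and Kdm6b (also called Jmjd3) removes the mark of PRC2. In the adult subependymal zone Bmi1 is known for stem cell self-renewal, where it represses Cdkn2a. Ezh2, Kmt2a and Kdm6b are known there for their roles in making neurons, Kmt2a and Kdm6b in part through the interneuron gene Dlx2.

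The microRNA that the antagomir blocks is shown first, with its match in Ezh1, because a microRNA acts through such matches. The mature miR-204-5p (RefSeq, GRCm38.p6, chr19:22750610-22750631, plus strand, 22 bases) is given 5′ to 3′ with its seed, bases 2 to 8, in capitals. Below it stands the match in the Ezh1 transcript with its surroundings, 30 bases, with the bases that pair with the seed in capitals.
miR-204-5p: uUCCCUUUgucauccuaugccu
Ezh1: agacagaactcAAAGGGAgacatgtctcca
The Ezh1 match lies on the minus strand at chr11:101192520-101192526 (GRCm38), at base 413 of the 1823-base 3′ UTR of its most abundant transcript, Ezh1-203. The search covered 3 kinds of match on the transcript strand, AAAGGGA (called 7mer-m8), AAAGGGAA (8mer, which contains it) and AAGGGAA (7mer-A1, which overlaps it). Kmt2a-203, the most abundant Kmt2a transcript per length, has no annotated 3′ UTR. Among 13829 coding genes tested, 13.5% held AAAGGGA and 20.4% held any of the 3, in UTRs with a median of 880 bases. Ezh1 measured a log2 fold change of 0.13, antagomir over vehicle, and did not pass the test described below.

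The libraries held 14866453 to 19694409 estimated counts, in 17170 to 17964 genes with a count. Marker lists were used to check the labelled cell type, which they cannot separate from astrocytes. The 13 genes listed as markers of quiescent stem cells and astrocytes summed to 5067 to 6799 TPM over the 6 libraries. TPM is a level per transcript length with 1 fixed total for all libraries. The 8 oligodendrocyte markers summed to 6539 to 15499, 6 ependymal markers to 2443 to 4263 and 5 endothelial markers to 4.16 to 11.7. Microglia and macrophage markers summed to 1897 TPM in vehicle 1 and to 108 to 261 in the other 5 libraries, so vehicle 1 stood apart. Neuroblast markers (11 genes) summed to 590 to 1251 TPM after vehicle and 932 to 2044 after antagomir, highest in antagomir 1, and 12 markers of dividing cells to 199 to 457 and 442 to 538. In such bulk RNA, fewer cells of a type and less RNA per cell cannot be told apart. None of 15004 genes tested passed an adjusted p of 0.05 in edgeR's quasi-likelihood test, with a smallest adjusted p of 0.949. DESeq2 called 1 gene, and 616 genes (4.11%) had an unadjusted p under 0.05 in edgeR.

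None of the 9 genes changed past the test: 0 were called against a background of 0% of genes tested, and 0 had an unadjusted p under 0.05. Their fold changes were positive for 6 genes (Bmi1, Rnf2, Ezh2, Eed, Ezh1 and Suz12) and negative for 3 (Kdm6b, Kmt2a and Ring1), with a median log2 fold change of 0.13, against -0.0062 and 49.1% positive over all genes tested. For all 9 genes the vehicle and antagomir libraries overlapped in TPM, where 7.04% of all genes lay wholly higher and 3.7% wholly lower after antagomir.

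**Figure D1:**
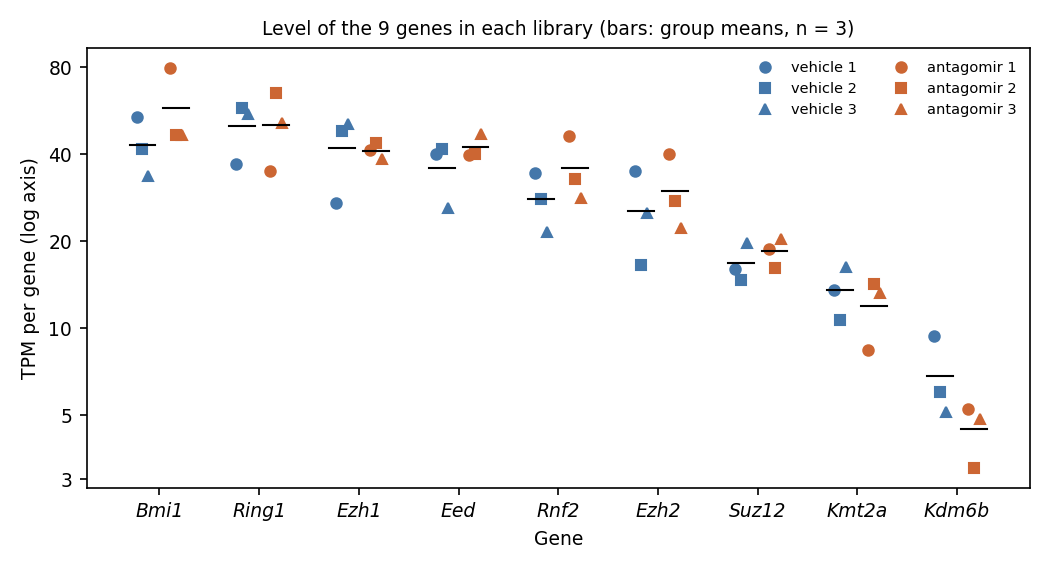
Level of each of the 9 genes in TPM (log axis) in the 3 vehicle and 3 antagomir libraries, with bars at the group means. The groups overlap for every gene, and the means over 6 libraries run from 50.2 for Bmi1 to 5.65 for Kdm6b.

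The 9 genes were expressed at different levels per length. Bmi1 (50.2 TPM, mean of 6 libraries) and Ring1 (50.2) led, followed by Ezh1 (41.5), Eed (39.0), Rnf2 (31.9), Ezh2 (27.7), Suz12 (17.6), Kmt2a (12.7) and Kdm6b (5.65). Only 3 steps in this order held in all 6 libraries and exceeded the larger standard deviation (SD) of the neighbours, Ezh2 above Suz12, Suz12 above Kmt2a and Kmt2a above Kdm6b. The 5 steps among Bmi1, Ring1, Ezh1, Eed, Rnf2 and Ezh2 were each within that spread. With protein-coding transcripts alone the Ezh2 mean was 17.9 TPM and the Suz12 mean 14.1, and Ezh2 was then higher in 3 of 6 libraries. Suz12 was then above Kmt2a (12.7 TPM) in 4 of 6 libraries, by less than the larger SD, so both of these steps were lost in the coding sums. Kdm6b remained the lowest of the 9 in the coding sums, at 4.21 TPM, below Kmt2a in 6 of 6 libraries.

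Of the PRC2 enzymes, Ezh1 (chr11:101191115-101226463, minus strand, GRCm38), which is known as the form that non-dividing cells keep, measured 27.1, 48.2 and 50.6 TPM in vehicle 1 to 3 and 41.2, 43.8 and 38.4 TPM in antagomir 1 to 3. The antagomir libraries lay inside the vehicle range, whose lowest value was vehicle 1, the library with the most microglia marker RNA. The group means were 42.0 ± 12.9 and 41.1 ± 2.66 TPM (SD, n = 3 each). The edgeR log2 fold change of Ezh1 was 0.13 ± 0.19 (standard error, SE; adjusted p = 0.954), with a 95% interval from 0.811 to 1.47-fold, and without vehicle 1 it was -0.026.

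Ezh2 (chr6:47530139-47595341, minus strand), the enzyme known as the main form of dividing progenitors, measured 34.8, 16.5 and 24.9 TPM after vehicle and 40.1, 27.5 and 22.2 TPM after antagomir. The highest library of each group was its first one, and the lowest was vehicle 2. Ezh2 had a log2 fold change of 0.30 ± 0.38 (SE, edgeR adjusted p = 0.952), the widest interval of the 9 on the log2 scale at 0.674 to 2.26-fold. It moved from 0.73 without vehicle 1 to -0.017 without antagomir 1, so its direction rested on single libraries.

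The ratio of Ezh2 to Ezh1 TPM within a library was 1.29, 0.343 and 0.492 after vehicle and 0.973, 0.628 and 0.577 after antagomir. Ezh1 exceeded Ezh2 in 5 libraries and Ezh2 exceeded Ezh1 in 1, vehicle 1. The mean log2 ratio differed by 0.23 between groups (exact two-sided permutation test, p = 0.8; the smallest p that 3 against 3 allows is 0.1). The vehicle libraries alone spread over a wider range of this ratio than the antagomir libraries.

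Eed (chr7:89954654-89980983, minus strand), the subunit that binds the mark PRC2 makes, measured 40.02, 41.5 and 26.0 TPM after vehicle and 39.6, 39.9 and 47.0 TPM after antagomir. Vehicle 3 was lowest and antagomir 3 highest, and the other 4 libraries were within 2 TPM of each other. For Eed the log2 fold change was 0.22 ± 0.22 (SE, edgeR adjusted p = 0.9503), and it was 0.41 without vehicle 1 and 0.080 without vehicle 3. Suz12 (chr11:79993106-80034123, plus strand), the scaffold subunit of PRC2, varied little, at 15.99, 14.7 and 19.67 TPM after vehicle and 18.8, 16.1 and 20.3 TPM after antagomir. The highest value of each group was in its library 3, and the groups overlapped. The log2 fold change of Suz12 was 0.03 ± 0.17 (SE, edgeR adjusted p = 0.991), with an interval of 0.778 to 1.33-fold.

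Among the PRC1 genes, Bmi1 (chr2:18677018-18686629, plus strand) measured 53.6, 41.7 and 33.5 TPM after vehicle and 79.5, 46.5 and 46.5 TPM after antagomir. Antagomir 1 was the highest of the 6, and vehicle 1 exceeded the other 2 antagomir libraries, so the groups overlapped. Group means were 42.9 ± 10.1 and 57.5 ± 19.1 TPM (SD, n = 3 each). For Bmi1 the log2 fold change was 0.31 ± 0.24 (SE, edgeR adjusted p = 0.949), and it was 0.55 without vehicle 1 and 0.088 without antagomir 1. Of the 31-base words in Bmi1 transcripts, 27.8% also occur in the gene Gm5946, which was listed at 0 counts in all 6 libraries, so the division of reads between the 2 is the quantifier's.

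Rnf2 (also called Ring1b; chr1:151458004-151500955, minus strand), a ubiquitin ligase of PRC1, measured 34.3, 27.9 and 21.5 TPM after vehicle and 46.3, 32.8 and 28.3 TPM after antagomir. As for Bmi1, antagomir 1 was highest, vehicle 1 next and vehicle 3 lowest. The log2 fold change of Rnf2 was 0.31 ± 0.26 (SE, edgeR adjusted p = 0.949), and it was 0.53 without vehicle 1 and 0.054 without antagomir 1. Exons of Rnf2 overlap those of Trmt1l on the other strand, which averaged 45.5 TPM, and the cDNA kit does not mark strand. Those of Ezh2, Eed, Suz12, Kmt2a and Kdm6b each overlap 1 annotated noncoding gene, for which no values were available. The part of reads from such overlaps was not tested.

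Ring1 (chr17:34020792-34024680, minus strand), the other ligase, measured 37.0, 57.8 and 55.1 TPM after vehicle and 34.9, 64.9 and 51.3 TPM after antagomir. The lowest library of each group was its first one, where Rnf2 and Bmi1 were highest. The log2 fold change of Ring1 was -0.0034 ± 0.25 (SE, edgeR adjusted p = 0.999), with an interval of 0.665 to 1.497-fold. Without 1 library it ranged from -0.21 to 0.20, so it had no stable direction.

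The ratio of Rnf2 to Ring1 TPM was accordingly 0.927, 0.483 and 0.389 after vehicle and 1.33, 0.506 and 0.552 after antagomir. Ring1 exceeded Rnf2 in 5 libraries and Rnf2 exceeded Ring1 in antagomir 1. The log2 difference between groups was 0.36 (exact two-sided permutation test, p = 0.5, 0.75 adjusted over the 3 ratios compared), and without antagomir 1 it was -0.081.

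Kmt2a (chr9:44803355-44881296, minus strand), the trithorax methyltransferase, measured 13.6, 10.7 and 16.3 TPM after vehicle and 8.40, 14.2 and 13.2 TPM after antagomir. The lowest library in TPM was antagomir 1, and the other 5 were mixed between groups. Kmt2a had a log2 fold change of -0.20 ± 0.17 (SE, edgeR adjusted p = 0.949), the interval was 0.664 to 1.14-fold, and it stayed negative when any 1 library was left out (-0.34 to -0.11).

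Kdm6b (chr11:69398508-69413675, minus strand), the demethylase, measured 9.38, 5.99 and 5.13 TPM after vehicle and 5.27, 3.29 and 4.84 TPM after antagomir. Vehicle 1 was highest and antagomir 2 lowest, and the groups overlapped only through antagomir 1, which lay above vehicle 3. Group means were 6.83 ± 2.24 and 4.46 ± 1.04 TPM (SD, n = 3 each), from 156 to 417 estimated counts per library. The log2 fold change of Kdm6b was -0.38 ± 0.29 (SE, edgeR adjusted p = 0.949), the most negative of the 9, with an interval of 0.487 to 1.22-fold. It was negative without any 1 library, from -0.66 to -0.17.

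Set against the methyltransferases whose mark it removes, Kdm6b had a ratio to the sum of Ezh1 and Ezh2 of 0.151, 0.0926 and 0.0680 after vehicle and 0.0647, 0.0461 and 0.0798 after antagomir. Antagomir 3 lay above vehicle 3 and the other antagomir libraries below every vehicle library. The log2 difference was -0.67 (exact two-sided permutation test, p = 0.2, 0.6 adjusted over the 3 ratios). It was -0.36 without vehicle 1 and -0.93 without vehicle 3. With CPM or with coding transcripts it was -0.59 and -0.63, each at the smallest exact permutation p the design allows, 0.1 (not adjusted).

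**Figure D2:**
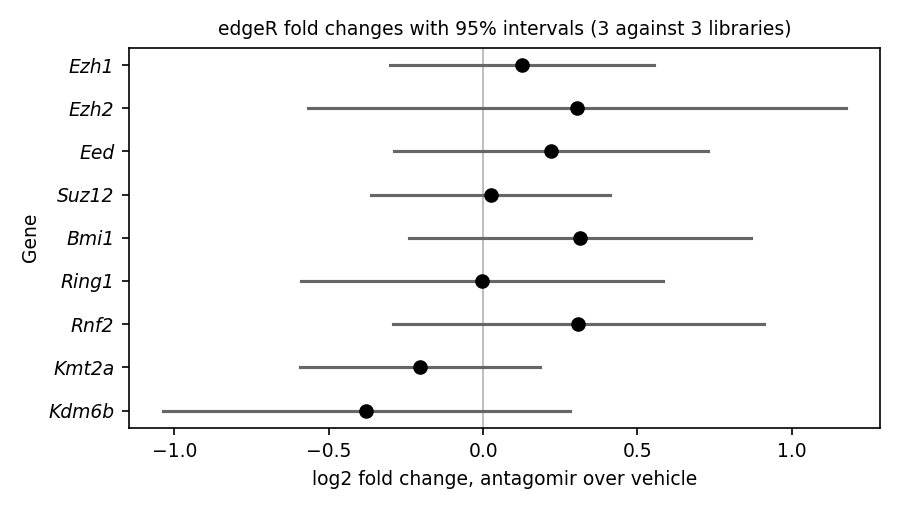
edgeR log2 fold change of each of the 9 genes, antagomir over vehicle (points), with 95% intervals (lines), from 3 libraries per group. Every interval crosses 0, and the widest is that of Ezh2, from 0.674 to 2.26-fold on the linear scale.

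The gene sums hide a varied transcript make-up. In the mean over 6 libraries the noncoding share was largest for Ezh2 (37.9%), in which transcripts annotated as not protein-coding made 21.5 to 49.9% of the TPM, lowest in antagomir 1. They made 18.8 to 43.7% of Eed, 16.01 to 44.1% of Ezh1, and at most 1.52% of Kmt2a. By estimated counts, which are not divided by length, the Ezh2 share was 12.95 to 33.7% and the Ezh1 share 2.89 to 9.20%, since many noncoding transcripts are short.

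For Kdm6b the make-up bears directly on its level in vehicle 1. The noncoding Kdm6b-202 held 54.8% of that library's Kdm6b TPM and 9.68% of its Kdm6b counts, while vehicle 3 and antagomir 1 held none. Coding Kdm6b-201 alone measured 4.24, 4.43 and 5.13 TPM after vehicle and 5.27, 2.62 and 3.58 TPM after antagomir. On this sum antagomir 1 was the highest library, and vehicle 1 no longer stood above the rest.

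Kmt2a split between its full-length transcripts and a short one. Kmt2a-201 and Kmt2a-202 together measured 4.47, 6.21 and 5.28 TPM after vehicle and 5.48, 5.81 and 3.54 TPM after antagomir, and they took 58.8 to 88.0% of Kmt2a counts. The 4336-base Kmt2a-203 measured 8.91, 4.47 and 10.8 TPM after vehicle and 2.91, 8.36 and 9.69 TPM after antagomir. The low Kmt2a TPM sum of antagomir 1 thus lay in Kmt2a-203, since its long transcripts were within the vehicle range. The long transcripts of antagomir 3 lay below that range. In CPM antagomir 3 (58.4) and antagomir 1 (60.2) were lowest, and antagomir 2 (77.8) lay within the vehicle range of 69.6 to 83.5.

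The share of TPM in the most abundant transcript was 90% or more in most libraries only for Rnf2 (89.6 to 100% in Rnf2-201). It was 71.1 to 87.9% for Ring1-201, 46.5 to 64.2% for Eed-201, 36.4 to 48.3% for Bmi1-202 and 21.6 to 32.4% for Ezh2-201. Exact two-sided permutation tests of the 9 shares gave p from 0.2 for Ezh1 to 0.9, all 0.9 adjusted over the 9. With 3 against 3 libraries the smallest p is 0.1. No share could therefore pass 0.05, and the tests cannot decide whether the shares differed between groups.

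**Figure D3:**
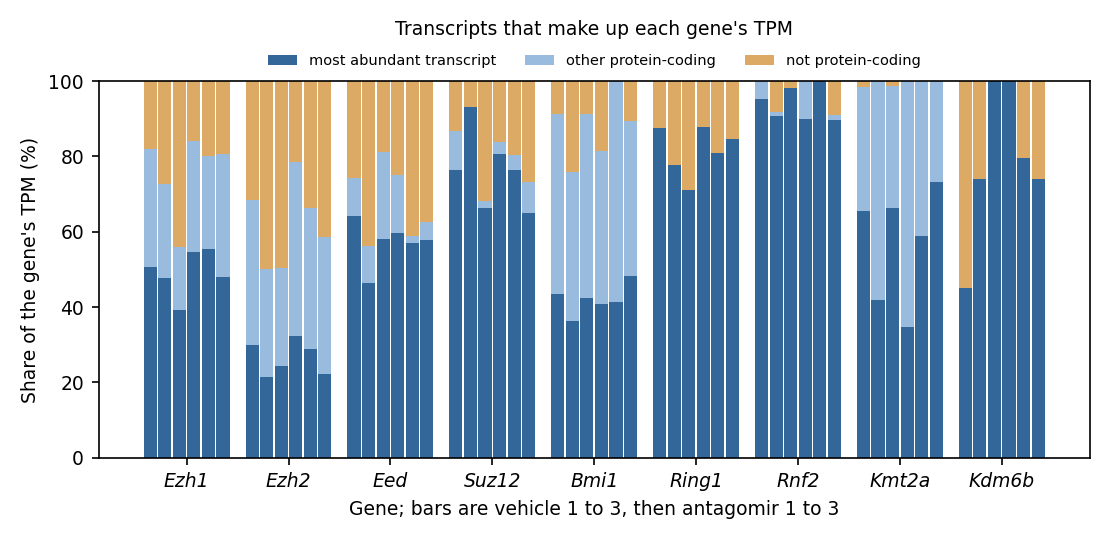
Share of each gene's TPM (%) in its most abundant transcript, in other protein-coding transcripts and in transcripts that are not protein-coding, with 1 bar per library (vehicle 1 to 3, then antagomir 1 to 3). Noncoding transcripts reach 54.8% for Kdm6b in vehicle 1 and 49.9% for Ezh2 in vehicle 2, and stay at or under 1.52% for Kmt2a.

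Several of the 9 genes shared a pattern over libraries that crossed the groups. Bmi1 lay 0.24 above its 6-library mean of log2 CPM (counts scaled by library total) in vehicle 1 and 0.55 above it in antagomir 1, Rnf2 0.22 and 0.59, and Ezh2 0.51 and 0.71. Ring1 was lowest in the same libraries, at -0.32 and -0.50 relative to its mean. Vehicle 1 and antagomir 1 carry the same replicate number, and the part of a shared replicate in this pattern was not tested. Over the 6 libraries Pearson's r was 0.96 between Bmi1 and Rnf2, 0.87 between Ezh2 and Bmi1, and 0.83 between Ezh2 and Rnf2. With Ring1 it was -0.79 for Bmi1, -0.77 for Ezh2 and -0.69 for Rnf2. The points are the same 6 libraries with their shared depth and cell make-up, and r is given as a description.

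Marker lists moved with these genes. The neuroblast score, the median of its markers' deviations in log2 CPM, was 0.83, -0.95 and -1.63 in vehicle 1 to 3 and 1.66, -0.05 and 0.01 in antagomir 1 to 3. Its r over 6 libraries was 0.99 with Bmi1, a value that 0.12% of tested genes reached, 0.93 with Rnf2 (2.43% of genes) and 0.82 with Ezh2 (8.89%). The dividing cell score had an r of 0.87 with Bmi1 (3.49% of genes reached it), 0.81 with Eed (6.41%), 0.80 with Ezh2 (7.11%) and 0.77 with Rnf2 (8.36%). Other lists ran alongside: the mature neuron score (5 markers) had an r of 0.91 with Rnf2 (1.41%), 0.85 with Ezh2 (3.49%) and 0.84 with Bmi1 (3.83%). The ependymal score had an r of -0.94 with Bmi1, -0.86 with Rnf2, -0.76 with Ezh2 and 0.81 with Ring1. Ezh1 had an r of -0.90 with the microglia score, a value that 99.3% of genes reached or exceeded. That score was 2.80 in vehicle 1 and between -1.36 and -0.03 in the other 5 libraries. With the oligodendrocyte score Ezh1 had an r of 0.80 (5.42%) and Ring1 0.77 (6.58%). With the choroid plexus score (2 tested markers) Ring1 had 0.91 and Bmi1 -0.91. Kdm6b had an r of 0.80 with the score of quiescent stem cell and astrocyte markers (3.17%). It had -0.73 with that of oligodendrocyte precursors, a value that 95.8% of genes reached or exceeded. All 11 neuroblast, all 12 dividing cell and all 8 oligodendrocyte markers had positive fold changes after antagomir. All 9 microglia and all 6 ependymal markers had negative ones. Of the 13 markers of quiescent stem cells and astrocytes, the labelled cell type, 10 were negative and 3 positive. In each of these lists 0 were called. The part of these cell types in the values of Bmi1, Rnf2, Ezh2, Eed, Ring1, Ezh1 and Kdm6b was not tested.

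**Figure D4:**
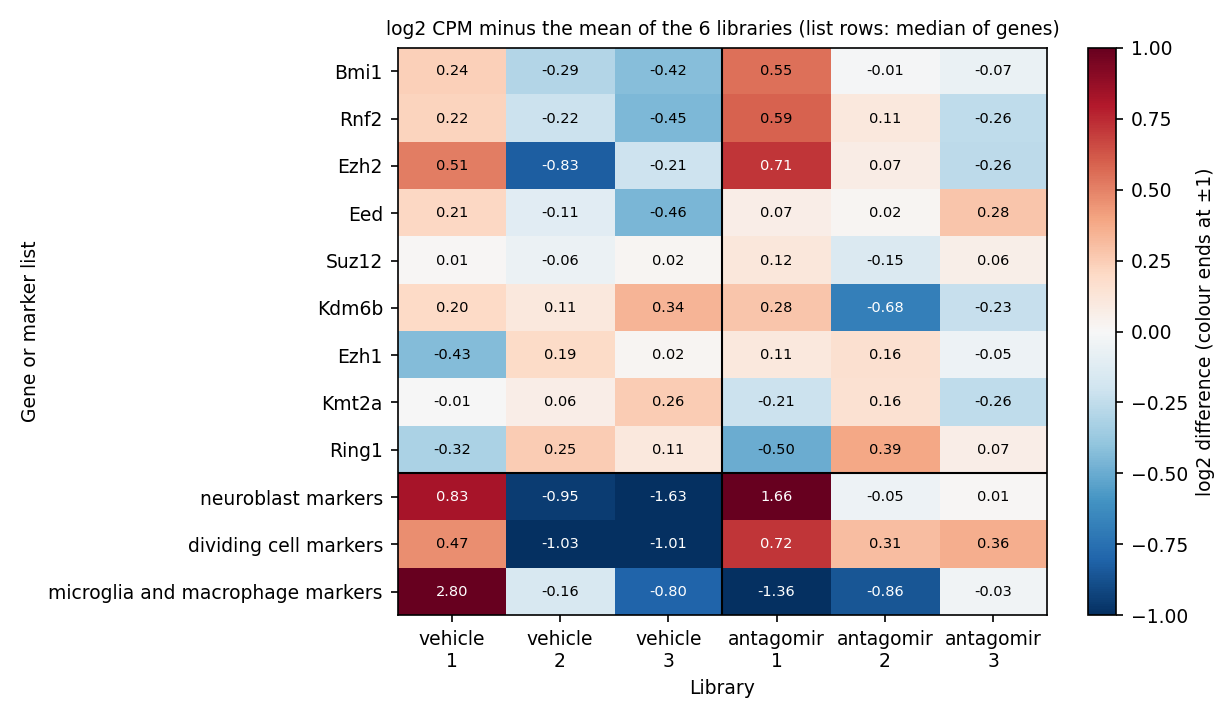
log2 CPM of each gene minus its mean over the 6 libraries (colour and printed value), with the scores of 3 marker lists below, by library. Bmi1, Rnf2 and Ezh2 are highest and Ring1 lowest in vehicle 1 and antagomir 1, the libraries with the highest neuroblast scores, 0.83 and 1.66.

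Genes whose pattern over the 6 libraries was most like that of a member were found by Pearson's r of log2 CPM among all genes tested. For Ezh2 these were Cnot6, Ina and Gpr21 (r of 0.998, 0.998 and 0.995), with 61 genes over 0.95. For Ezh1 they were Slc43a2, Haus2 and Vamp3 (0.991, 0.987 and 0.983), for Kmt2a Smim20, Mrps35 and Tcea2 (0.984, 0.983 and 0.982), and for Kdm6b Hadhb, Abhd13 and Slc4a11 (0.991, 0.991 and 0.990). For Ezh1, Kmt2a and Kdm6b, 34, 40 and 59 genes had an r over 0.95.

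Genes related to the 9 were read from lists of 91 tested genes in 6 groups. These held partners, and also 23 subunits of the BAF remodelling complex and 7 tested genes reported as targets. No gene was called, 61 had a positive and 30 a negative fold change, and the median log2 fold change was 0.12. In TPM 12 of the 91 lay wholly higher and 0 wholly lower after antagomir, where 7.04% and 3.7% of all genes did so. In CPM the counts were 7 higher and 2 lower, where 5.07% and 5.45% of all genes did so.

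Of 9 PRC2 partners 7 were positive (median 0.09). The histone-binding subunit Rbbp4 measured 152, 140 and 157 TPM after vehicle and 195, 174 and 169 TPM after antagomir, without overlap on this scale. Its edgeR log2 fold change, which comes from counts, was 0.11 ± 0.12 (SE, adjusted p = 0.9505). Its relative Rbbp7 measured 153 to 183 and 167 to 197 TPM, and Mtf2, which helps PRC2 find its sites, 30.9 to 44.8 and 38.1 to 45.2 TPM. Of 23 PRC1 partners 13 were positive (median 0.08). Among them Phc2, the polyhomeotic subunit, measured 126, 117 and 117 TPM after vehicle and 178, 139 and 147 TPM after antagomir. It too was without overlap in TPM, with a log2 fold change of 0.26 ± 0.15 (SE, edgeR adjusted p = 0.949). The chromodomain subunit Cbx6 (log2 fold change 0.23) and the variant PRC1 subunit Yaf2 (0.12) overlapped between groups.

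Of 18 other genes on a list of trithorax genes and of COMPASS, the family of Kmt2a-type complexes, 10 were positive (median 0.06). Psip1, which tethers Kmt2a to chromatin, measured 173, 154 and 153 TPM after vehicle and 246, 187 and 206 TPM after antagomir. Every antagomir library lay above every vehicle library in TPM, and the log2 fold change was 0.33 ± 0.15 (SE, edgeR adjusted p = 0.949). Kmt2e had a log2 fold change of 0.10 and Dpy30, a core subunit shared by these complexes, -0.22. Of 11 histone demethylases and H2A deubiquitinases 10 were positive (median 0.13), led in level by Bap1 (0.13), the H2A deubiquitinase, Kdm1a (0.35) and Kdm5b (0.27). Kdm6a, the X-linked relative of Kdm6b and named here after its values were seen, measured 13.2, 17.9 and 13.1 TPM after vehicle and 15.5, 21.5 and 18.0 TPM after antagomir, with a mean of 16.5 TPM against 5.65 TPM for Kdm6b. Of 23 subunits of the BAF remodelling complex, which opposes Polycomb, 17 were positive (median 0.16), and the 3 most abundant, Smarcb1, Smarcc2 and Dpf2, had log2 fold changes of 0.16, 0.14 and 0.32.

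Genes reported as targets of these regulators in neural stem cells were spread widely. Dlx2 measured 153, 77.9 and 76.3 TPM after vehicle and 253, 105 and 140 TPM after antagomir, with a log2 fold change of 0.72 ± 0.41 (SE, edgeR adjusted p = 0.949). Dlx1 measured 138, 38.6 and 40.4 TPM and 298, 115 and 84.6 TPM, with a log2 fold change of 1.08 ± 0.61 (SE, edgeR adjusted p = 0.949). Both were highest in antagomir 1 and vehicle 1, and Dlx2 is itself one of the neuroblast markers above. The cell cycle inhibitor Cdkn1a had a log2 fold change of -0.15. Cdkn2a, the locus that Bmi1 represses, had 6 counts in vehicle 1 and 0 in each of the other 5 libraries, which allows up to 3 counts per library (0.152 to 0.202 CPM), and was too low to test. This gene is named after its values were seen. Of 39 Hox genes, classical targets of Polycomb silencing, 0 passed the filter on low counts and 19 had 0 counts in all 6 libraries. All 39 together summed to 1.15 to 3.15 TPM per library, with vehicle at 1.29 to 2.71 inside the antagomir range.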

How the data were processed

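RNA of sorted mouse cells was converted to cDNA with the SMART-Seq v4 kit and sequenced as 100 bp paired-end reads, per the labels' protocols. Groups came from the labels' treatment group, because the protocol field names the antagomir for all 6 samples. kallisto, sleuth and the build mm10 are named in the submitters' processing notes, and the transcript index and tool versions are not given in the sources used here. Per the file headers, the deposited estimated counts are fragments that the quantifier assigned to each transcript (expected counts, not normalized). The deposited TPM values are per transcript length and scaled to a fixed total per library, per the file headers. Reads of similar transcripts are divided by a model, so transcript shares are less certain than gene sums.

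Of 99567 transcripts, 98206 (98.6%) matched GENCODE M21 (GRCm38) by identifier. The other 1361, with 0.545 to 0.606% of each library's counts, were not analysed here. Values were summed to 32485 genes and counts rounded to whole numbers. edgeR 4.0.16 in R 4.3.3 (TMM, default filterByExpr, minimum count 10, robust quasi-likelihood fit, no covariate) tested 15004 genes, and adjusted p-values (Benjamini-Hochberg) under 0.05 were called. The common coefficient of variation that edgeR fitted among libraries of a group was 36.2%, and it may hold technical variation. CPM uses TMM-scaled totals, and log2 CPM of gene patterns a prior count of 2. The script was tested on simulated data. No pair of libraries agreed within sampling noise (chi-square per gene 22.6 to 93.6 over 15 pairs).

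The 9 genes and all lists were chosen with earlier results of these data known. Named were the 9 genes, the 3 most abundant tested genes of each pathway list, and the 3 genes most correlated with Ezh2, Ezh1, Kmt2a and Kdm6b (Gm and Rik names and pseudogenes left out). Marker lists are given by their sums. Lists got no set test. Ratios and transcript shares were compared with exact two-sided permutation tests. Alternatives were other scalings and filters, DESeq2 1.42.0, limma 3.58.1 on voom weights or log2 TPM with a pseudocount of 1 or 0.1, protein-coding transcripts, a replicate block and leaving out each library. Some seed matches to miR-204-5p are not reported here.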

Additional observations from a re-analysis of the deposited data

How the results depend on the processing

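Of 144 values of single genes under alternatives, 134 kept direction and side of the threshold and 10 had the opposite direction; the cause was not tested. Ring1, at -0.0034 on the log2 scale, was 0.00021 with RLE size factors, 0.0020 with no filter, 0.00023 with DESeq2 and 0.049 with coding transcripts. With 1 library left out Ring1 ranged from -0.21 to 0.20 (positive without vehicle 2, vehicle 3 or antagomir 1), Ezh1 from -0.026 (without vehicle 1) to 0.27, Ezh2 from -0.017 (without antagomir 1) to 0.73 and Suz12 from -0.030 (without antagomir 1) to 0.11. Eed, Bmi1, Rnf2, Kmt2a and Kdm6b kept their direction under every alternative run, with Eed from 0.080 to 0.41 when 1 library was left out. Calls over all genes were 0 in every setting run but DESeq2, which made 1. The median of the 9 genes ranged from 0.043 to 0.15 with 1 library left out.

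The replicate numbers were not taken to pair the samples. Correlations of same-numbered deviations were 0.195, 0.075 and 0.027, and those of different-numbered libraries ran from -0.186 to 0.140. The highest of all was that of vehicle 1 with antagomir 1. The edgeR fit with a replicate block made 0 calls, with 1283 genes at an unadjusted p under 0.05 and a smallest adjusted p of 0.210. Under the block the log2 fold changes were 0.15 for Ezh1, 0.34 for Ezh2, 0.32 for Bmi1 and -0.43 for Kdm6b.

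Among list medians with 1 library left out, the PRC2 partners (0.09) ranged from 0.016 to 0.16 and the BAF subunits (0.16) from 0.028 to 0.26. The PRC1 partners (0.08) were at 0.032 with limma-voom, 0.14 with coding transcripts and 0.0064 to 0.14 with 1 library left out. The COMPASS and trithorax genes (0.06) were at 0.16 on log2(TPM + 1), 0.17 on log2(TPM + 0.1), -0.011 with coding transcripts and -0.018 to 0.15 with 1 library left out. The demethylases (0.13) were at 0.26 with coding transcripts and 0.074 to 0.27 with 1 library left out, and the reported targets (0.43) at 0.039 to 1.23. With 1 library left out the Ezh2 to Ezh1 log2 ratio ranged from -0.17 (without vehicle 2) to 0.78 and the Rnf2 to Ring1 log2 ratio from -0.081 (without antagomir 1) to 0.73, and the log2 ratio of Kdm6b to Ezh1 plus Ezh2 from -0.93 to -0.36.

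Differences in the share of the most abundant transcript, in percentage points, had no stable sign for 6 genes. Ezh2 was at -0.672 by counts. With 1 library left out Eed ranged from -2.98 to 5.88, Suz12 from -10.9 to 2.55, Rnf2 from -4.96 to 0.259, Kmt2a from -11.1 to 8.18 and Kdm6b from -2.43 to 24.97. Depth left 156 to 1644 estimated counts per gene and library.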
